A study of Mus musculus with 24 samples.

Results

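The genes described here are 10 of the 56326 genes and repeat families in the read count tables: Zmat3, Polk, Ddb2, Xpc, Rrm2b, Sesn1, Sesn2, Tigar, Sulf2 and Abhd4. They were chosen by name, with earlier results of these data known, as commonly cited targets of the transcription factor p53. They act in DNA repair, in stress metabolism or outside arrest and cell death. All 10 were found and passed the filter on low counts in every comparison. The measurements are total RNA-seq libraries of mouse embryos that had been injected at the zygote stage, into the male pronucleus, with 20 µM antisense oligonucleotides (ASOs). The MERVL-KD embryos received 3 ASOs against the endogenous retrovirus MERVL and the control embryos a scrambled ASO. Zygotes came from superovulated B6D2F1 females mated with B6D2F1 males, both 8 weeks old (the sample labels name the strain BDF2) and were cultured in KSOM medium. Libraries were made from pools of 30 embryos without the zona pellucida at the 2-cell stage (labelled 1.5 days post-coitum), the 4-cell stage and the 8-cell stage (both labelled 2.5 days). Each of these 6 groups holds 2 libraries, so p-values measure the spread between 2 pools of embryos. In pooled embryos, fewer cells that express a gene and less of its RNA per cell cannot be told apart.

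p53 is a transcription factor that is stabilised when DNA is damaged or cells are stressed, and it binds a pair of short half-sites near its target genes. Best known for arrest and cell death, it also drives genes that repair or tolerate DNA lesions, that supply nucleotides and that adjust metabolism. In nucleotide excision repair, the DDB2 and XPC proteins recognise the damaged base. Polymerase kappa, made from Polk, copies past bulky lesions, and RRM2B is the p53-inducible subunit of ribonucleotide reductase, which makes deoxynucleotides. The sestrins restrain the growth kinase complex mTORC1, and TIGAR lowers fructose-2,6-bisphosphate and so slows glycolysis. ZMAT3 is a zinc finger protein that binds RNA and affects splicing and mRNA stability. SULF2 removes sulfate groups from heparan sulfate at the cell surface, and ABHD4 is a lipid hydrolase of the pathway that makes N-acylethanolamines.

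The MERVL-int row, the internal region of the targeted retrovirus, took from 1.07% to 6.57% of the counts in the control libraries and from 0.0278% to 0.157% in the MERVL-KD libraries. Library totals ranged from 28167085 to 41482526 counts. Trp53, which encodes p53, had 18.4 to 26.4 CPM (counts-per-million on TMM-adjusted library sizes) in the control libraries and 13.2 to 28.2 CPM in the MERVL-KD libraries. From the 2-cell to the 8-cell stage its log2 fold changes were 0.13, −0.61 and −0.32, with edgeR adjusted p = 0.609, 0.0357 and 0.495. Among 10 markers of the 2-cell stage, Sp110 stayed abundant at every stage (624 to 1772 CPM), and the other 9 summed to 602 to 697 CPM in control 2-cell, 29.6 to 44.1 CPM in control 4-cell and 26.3 to 29.2 CPM in control 8-cell libraries. The 8 markers of later cleavage summed to 240 to 757 CPM over the libraries. Markers of cumulus cells summed to at most 2.46 CPM and those of sperm to at most 1.54 CPM.

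Consensus p53 response elements were sought near the 10 genes, since these are the sequences to which p53 binds. Near 2 of the 10 genes, Zmat3 and Tigar, the window from 5000 bases before to 5000 after the gene's 5′ end held such an element. It consists of 2 adjacent 10-base half-sites without a spacer, with the C and G of each core intact and at most 2 mismatches elsewhere. Such a window was seen for 10.5% of the 24040 genes tested in the 12 libraries. The 3 elements are shown here, 5′ to 3′ in the direction of the gene, with the 4-base core of each half-site in capitals.
Zmat3, 1674 bases downstream of the 5′ end, in an exon, 0 mismatches, chr3:32364331-32364350, minus strand: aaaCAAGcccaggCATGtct
Zmat3, 4146 bases upstream of the 5′ end, 1 mismatch, chr3:32370151-32370170, minus strand: gagCAAGtctgggCTTGtta
Tigar, 3362 bases downstream of the 5′ end, in an intron, 1 mismatch, chr6:127106186-127106205, minus strand: gggCTTGtttagcCTTGccc
The element in the Zmat3 exon has no mismatch to the consensus, which held for the windows of 0.266% of the genes. The other 8 genes held none, and in windows of 1000 bases on either side none of the 10 genes did, against 2.0% of all genes. Among 26 other commonly cited p53 targets 11 had an element in the wide window. The pattern reads the same on both strands, and windows of neighbouring genes can overlap. Positions are those of GRCm38.

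RefSeq promoters (GRCm38.p6, 250 bases before to 50 after a transcript's start) were matched for 6 of the 10 genes, with 10 start sites among them. A single consensus half-site without mismatch, shown in capitals, stood in 3 of these 10 promoters, against 7.43% of 17915 promoters of tested genes. These 3 promoters are shown because they belong to genes with different behaviour in the data: Abhd4 and Polk were called higher in MERVL-KD 4-cell embryos and Sesn1 was not. They lie at chr14:54259033-54259332 (Abhd4, plus strand), chr13:96519138-96519437 (Polk, minus strand) and chr10:41887189-41887488 (Sesn1, plus strand).
Abhd4: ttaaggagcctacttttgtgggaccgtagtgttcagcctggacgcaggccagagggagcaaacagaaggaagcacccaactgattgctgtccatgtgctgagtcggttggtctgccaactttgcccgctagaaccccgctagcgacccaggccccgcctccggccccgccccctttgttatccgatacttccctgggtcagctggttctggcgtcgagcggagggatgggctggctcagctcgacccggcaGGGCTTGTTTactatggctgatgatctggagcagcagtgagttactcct
Polk: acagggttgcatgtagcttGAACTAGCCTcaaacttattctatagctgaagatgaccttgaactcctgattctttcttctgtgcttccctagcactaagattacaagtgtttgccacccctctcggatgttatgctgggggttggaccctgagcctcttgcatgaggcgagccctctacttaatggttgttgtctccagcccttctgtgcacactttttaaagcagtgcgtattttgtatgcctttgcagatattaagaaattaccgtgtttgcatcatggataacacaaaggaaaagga
Sesn1: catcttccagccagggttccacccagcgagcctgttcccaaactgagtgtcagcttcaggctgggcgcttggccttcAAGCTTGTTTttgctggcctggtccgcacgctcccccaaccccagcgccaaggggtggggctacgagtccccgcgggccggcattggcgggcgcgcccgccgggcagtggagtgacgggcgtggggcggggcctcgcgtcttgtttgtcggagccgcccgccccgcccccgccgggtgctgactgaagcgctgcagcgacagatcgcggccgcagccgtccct
Each of these genes has a second RefSeq start without such a half-site. Because the counts are summed over a whole gene, they do not say which start was used. GC content was 59.7% in this Abhd4 promoter, 44.3% in the Polk promoter and 71.0% in the Sesn1 promoter, against a median of 58.7%.

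Among the 10 genes, more were called between MERVL-KD and control embryos at the 4-cell stage (5) than at the 2-cell (2) or the 8-cell stage (1). A gene was called when the adjusted p of edgeR's quasi-likelihood test was under 0.05 and the change at least 2-fold. In 2-cell embryos 2 of the 10 genes were called higher (Zmat3 and Polk), against 4.37% of all genes tested, and 0 lower, against 2.24%. By adjusted p alone 4 were higher and 1 was lower in these embryos, against 6.7% and 7.39% of all genes. At an unadjusted p under 0.05 the count of lower genes was also 1, and DESeq2 called 0 lower. In 4-cell embryos 4 were called higher (Zmat3, Polk, Abhd4 and Sulf2), against 2.66% of all genes, and 1 lower (Ddb2), against 1.88%. Without the fold limit these counts were 6 and 2, against 4.92% and 5.84% of all genes. In 8-cell embryos 1 gene was called higher (Zmat3), against 0.641% of all genes, and 0 lower, against 1.06%. By adjusted p alone these were 3 and 1, against 1.5% and 3.56% of all genes. An unadjusted p under 0.05 was reached by 1 lower gene, and DESeq2 called 0 lower. The median log2 fold change of the 10 genes was 0.25, 0.58 and 0.47 at the successive stages, beside 0.01, 0.03 and 0.01 for all genes.

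**Figure D1:**
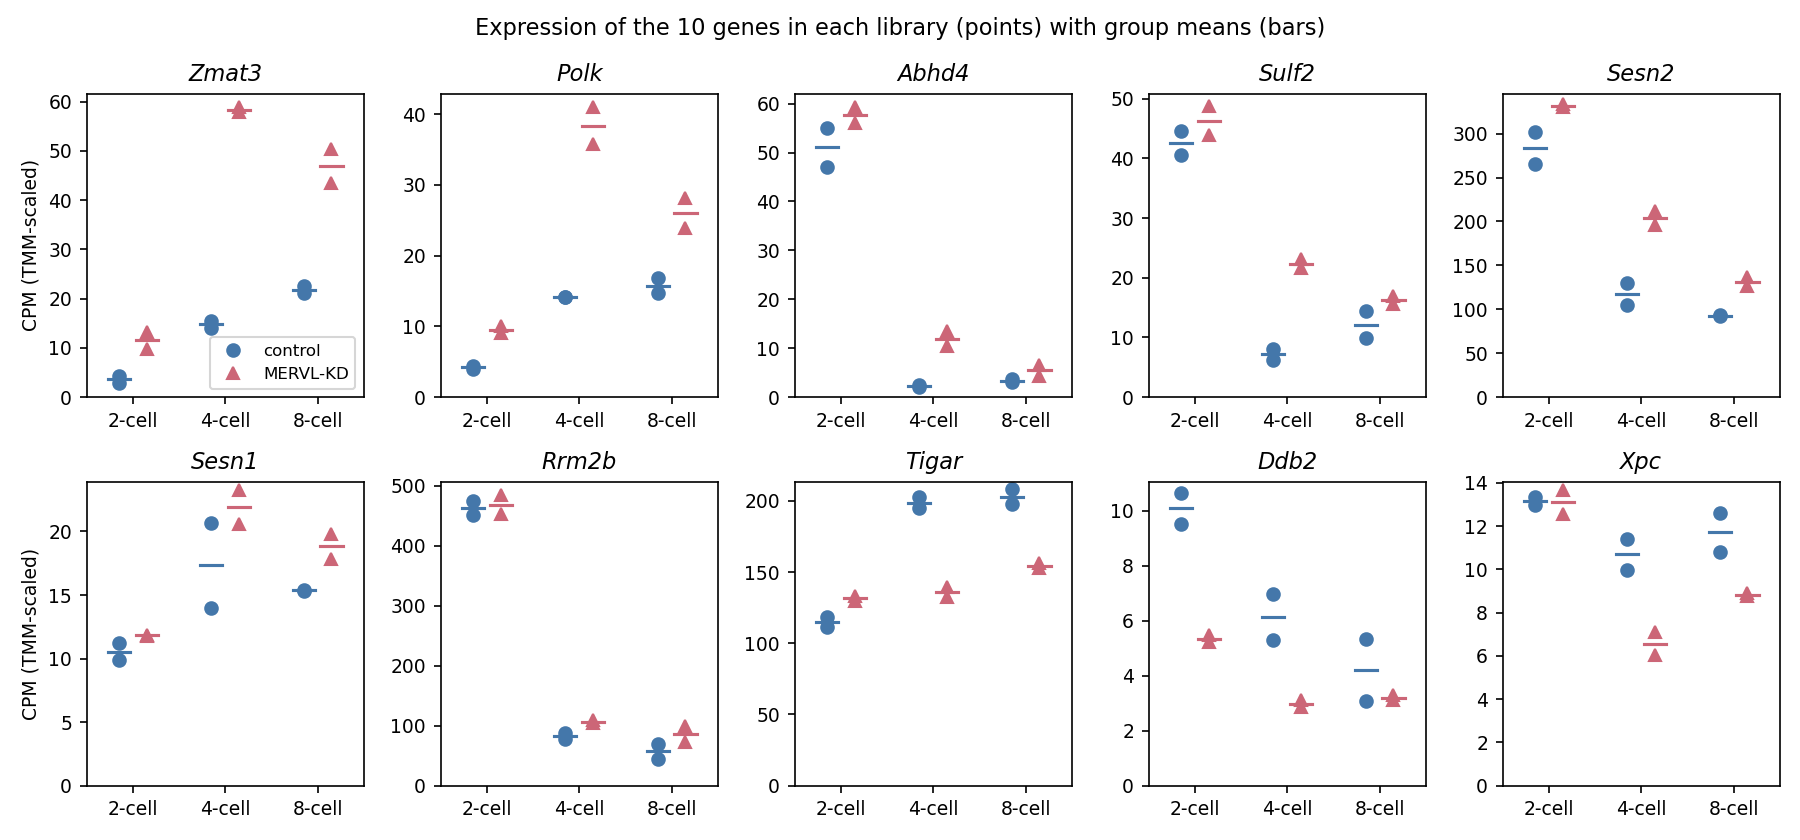
CPM on TMM-scaled library sizes (vertical axes, each from 0) of the 10 genes by stage from 2-cell to 8-cell, with a point for each library (circles, control; triangles, MERVL-KD) and a bar at each group mean. Zmat3, Polk, Sesn2 and Abhd4 were higher in both MERVL-KD libraries at every stage. Abhd4 and Sulf2 separated widely at the 4-cell stage, where Tigar, Ddb2 and Xpc lay lower in MERVL-KD libraries.

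Zmat3 (chr3:32334792-32366014, minus strand) rose at all 3 stages. In 2-cell embryos it stood at 2.87 and 4.35 CPM in the control libraries and at 9.86 and 13.2 CPM in the MERVL-KD libraries. Control 4-cell libraries held 14.1 and 15.4 CPM, and MERVL-KD 4-cell libraries 57.8 and 58.8 CPM. At the 8-cell stage the values were 22.5 and 21.2 CPM in control and 43.4 and 50.5 CPM in MERVL-KD. Every MERVL-KD library thus lay above both control libraries of its stage, and the groups nowhere overlapped. Such separation of 2 libraries from 2 was common. Of all genes tested, 23.8% lay higher and 33.7% lower without overlap at the 2-cell stage. The shares were 28% and 26.4% at the 4-cell and 23.6% and 25.9% at the 8-cell stage. Among the 10 genes the counts were 6 and 1, 6 and 3, and 7 and 2 at the successive stages. The rise was 3.37-fold in 2-cell embryos (log2 fold change 1.75, SE 0.24, edgeR adjusted p = 0.000162), 3.96-fold in 4-cell embryos (1.99, SE 0.14, edgeR adjusted p = 5.23e-06) and 2.16-fold in 8-cell embryos (1.11, SE 0.14, edgeR adjusted p = 0.000711). It was called under each of the 13 alternatives run at each stage. The effect at the 8-cell stage was 0.88 lower on the log2 scale than at the 4-cell stage (log2 difference −0.88, SE 0.25), a difference between stages that missed the threshold (edgeR adjusted p = 0.117) and passed in 2 of 20 alternatives, where adjusted p ranged from 0.0293 to 0.297. Of 3 other genes of the Zmat family tested, 1 was called, Zmat4, lower at the 4-cell stage.

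Polk (chr13:96480690-96542579, minus strand) also rose at each stage. The 2-cell control libraries held 4.40 and 4.02 CPM, and those of MERVL-KD embryos 10.0 and 9.08 CPM. At the 4-cell stage control stood at 14.2 CPM in both libraries and MERVL-KD at 35.7 and 41.1 CPM. The 8-cell values were 16.8 and 14.8 CPM in control and 28.1 and 24.0 CPM in MERVL-KD. The groups did not overlap at any stage. The change was 2.41-fold at the 2-cell stage (log2 1.27, SE 0.22, edgeR adjusted p = 0.000925) and 2.72-fold at the 4-cell stage (log2 1.44, SE 0.15, edgeR adjusted p = 0.000121). It was 1.66-fold at the 8-cell stage (log2 0.73, SE 0.16, edgeR adjusted p = 0.0267), under the fold limit. Translesion synthesis is the copying of damaged DNA. Among 12 other genes for it and for its control, 0 were called in either direction at any stage by edgeR or DESeq2. Before adjustment, 0, 3 and 2 of them were higher and 4, 2 and 2 lower at p under 0.05 at the successive stages. Rad18, the ubiquitin ligase that starts this pathway, had the smallest adjusted p over the stages and fell, with a log2 change of −0.65 (SE 0.16, edgeR adjusted p = 0.0210) at the 4-cell stage.

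Of the genes for damage recognition in nucleotide excision repair, Ddb2 fell in 2-cell and 4-cell embryos and Xpc passed the test at none of the stages. Ddb2 (chr2:91211572-91236982, minus strand) had 10.6 and 9.52 CPM in control 2-cell libraries and 5.21 and 5.49 CPM in MERVL-KD libraries. In 4-cell embryos it had 5.28 and 6.98 CPM in control and 2.86 and 3.10 CPM in MERVL-KD. Both MERVL-KD libraries lay below both control libraries at these stages. Ddb2 fell by 0.83 on the log2 scale at the 2-cell stage (SE 0.21, edgeR adjusted p = 0.0130) and by 1.03 at the 4-cell stage (SE 0.30, edgeR adjusted p = 0.0460). The call at the 4-cell stage was close to the threshold and was lost when any 1 of the 4 libraries was left out, with edgeR adjusted p from 0.0548 to 0.277. In 8-cell embryos the control libraries, at 5.33 and 3.08 CPM, enclosed both MERVL-KD values of 3.12 and 3.28 CPM, and the log2 change of −0.38 (95% interval −1.10 to 0.34) did not pass the test. DDB2 is induced by p53 in human cells, while the mouse gene has been reported not to respond to it in the same way. Whether Ddb2 responded to p53 in these embryos was not tested. An exon of Ddb2 overlaps one of Acp2 on the opposite strand by 441 bases. Acp2 held 73 to 206 counts and Ddb2 92 to 346, and how the counting treated strand is not given in the sources used here.

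Xpc (chr6:91489305-91515888, minus strand) did not differ in 2-cell embryos beyond its spread, with 13.3 and 13.0 CPM in control and 12.5 and 13.7 CPM in MERVL-KD (log2 0.08, 95% interval −0.28 to 0.44). At the 4-cell stage the control libraries held 11.4 and 9.97 CPM and the MERVL-KD libraries 7.09 and 6.05 CPM, and at the 8-cell stage 12.6 and 10.8 CPM against 8.77 and 8.90 CPM. The MERVL-KD libraries were the lower ones at both later stages. Neither change passed the adjusted threshold (log2 −0.70, SE 0.22, edgeR adjusted p = 0.0725, and −0.40, SE 0.20, edgeR adjusted p = 0.301). Over the mean of the stages Xpc fell by 0.37 on the log2 scale (SE 0.12, edgeR adjusted p = 0.0303), a result that held in 9 of 20 alternatives.

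Other genes of nucleotide excision repair went both ways. Of 27 tested, 3 were called in 2-cell embryos (Ercc5 higher, Lig1 and Rpa2 lower) and 3 in 4-cell embryos (Ercc5 and Xpa higher, Ercc4 lower). At the 8-cell stage 1 was called, Ercc4, lower. Ercc4, which encodes a subunit of the nuclease that cuts 5′ of the lesion, changed by −0.67, −1.74 and −2.56 on the log2 scale at the successive stages, with edgeR adjusted p = 0.00691, 0.00318 and 0.000138. Ercc5, which encodes the nuclease on the 3′ side, is itself a cited p53 target and stands in both lists.

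Rrm2b (chr15:37923952-37961318, minus strand) was by far more abundant in 2-cell embryos than later. Its 2-cell levels were 451 and 474 CPM in control and 484 and 452 CPM in MERVL-KD, so the groups overlapped (log2 0.10, 95% interval −0.07 to 0.27). In 4-cell embryos control libraries held 78.1 and 87.0 CPM and MERVL-KD libraries 109 and 104 CPM. This was a rise of 1.29-fold (log2 0.37, SE 0.10, edgeR adjusted p = 0.0416), which passed in 7 of 13 alternatives. The 8-cell libraries were more scattered, with 44.5 and 69.5 CPM in control and 99.2 and 73.6 CPM in MERVL-KD (log2 0.61, SE 0.22, edgeR adjusted p = 0.185). Of 14 other genes of deoxynucleotide supply, 1 was called, Tk1 (thymidine kinase), higher at the 2-cell stage. Dut, the dUTPase, had the smallest adjusted p over the stages and fell in 8-cell embryos by 0.70 on the log2 scale (SE 0.13, edgeR adjusted p = 0.0115). An exon of Rrm2b overlaps one of Gm49085 on the opposite strand by 379 bases, where that gene held 12 to 213 counts against 1226 to 20367 for Rrm2b.

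Of the 2 sestrins, Sesn2 rose at each stage and Sesn1 did not pass the test at any. Sesn2 (chr4:132492032-132510501, minus strand) stood at 266 and 302 CPM in control 2-cell libraries and at 330 and 334 CPM in MERVL-KD. The 4-cell values were 105 and 130 CPM in control and 196 and 212 CPM in MERVL-KD. The 8-cell values were 93.1 and 92.3 CPM in control and 126 and 137 CPM in MERVL-KD. The groups were separate at all 3 stages, with the widest gap at the 4-cell stage. The changes were under 2-fold, at 1.24-fold (log2 0.31, SE 0.08, edgeR adjusted p = 0.0218), 1.74-fold (log2 0.80, SE 0.11, edgeR adjusted p = 0.00109) and 1.43-fold (log2 0.51, SE 0.10, edgeR adjusted p = 0.0103). They passed in 11, 13 and 11 of 13 alternatives.

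Sesn1 (chr10:41809935-41908424, plus strand) had 11.2 and 9.88 CPM in control and 11.8 CPM in both MERVL-KD libraries of the 2-cell stage. At the 4-cell stage the control libraries differed from each other, at 14.0 and 20.7 CPM, and the MERVL-KD libraries held 20.6 and 23.2 CPM. At the 8-cell stage it had 15.3 and 15.4 CPM in control and 17.9 and 19.8 CPM in MERVL-KD. The log2 changes of 0.25, 0.34 and 0.30 had 95% intervals from −0.13 to 0.63, from −0.09 to 0.78 and from −0.06 to 0.66, so a rise as large as that of Sesn2 at the 2-cell stage lies within each. Among 31 other genes of the sestrin, amino acid sensing and mTORC1 pathway, the 1 gene called, in 2-cell and in 4-cell embryos, was Depdc5. It encodes a subunit of the GATOR1 complex that inhibits mTORC1 and acts in the same pathway as the sestrins, and it fell by 1.05 (SE 0.11, edgeR adjusted p = 9.51e-06) and 1.09 (SE 0.18, edgeR adjusted p = 0.00255) on the log2 scale. In 8-cell embryos it fell by 0.77 (SE 0.17, edgeR adjusted p = 0.0257), under the fold limit.

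Tigar (chr6:127085116-127109557, minus strand) was the 1 gene of the 10 that passed the adjusted threshold in both directions, at different stages. The log2 change of Xpc also turned in sign, at 0.08, −0.70 and −0.40, but passed at none. In 2-cell embryos Tigar had 111 and 119 CPM in control and 133 and 130 CPM in MERVL-KD. In 4-cell embryos it had 203 and 195 CPM in control and 140 and 132 CPM in MERVL-KD. In 8-cell embryos it had 208 and 198 CPM in control and 153 and 156 CPM in MERVL-KD. The MERVL-KD libraries were thus above control at the first stage and below it at both later stages, without overlap. The log2 change was 0.28 at the 2-cell stage (SE 0.09, edgeR adjusted p = 0.0487), which held in 3 of 13 alternatives. It fell by 0.54 at the 4-cell stage (SE 0.09, edgeR adjusted p = 0.00358, 13 of 13 alternatives) and by 0.39 at the 8-cell stage (SE 0.09, edgeR adjusted p = 0.0257, 10 of 13). Of 16 other genes of fructose bisphosphate and pentose phosphate metabolism, Pfkfb4 was the 1 gene called, and it was higher in 2-cell and in 4-cell embryos. This gene encodes an enzyme that makes and degrades the metabolite that TIGAR degrades, and its log2 change was 1.57 (SE 0.36, edgeR adjusted p = 0.00780) and 2.50 (SE 0.54, edgeR adjusted p = 0.0134). An exon of Tigar overlaps one of Platr31 on the opposite strand by 122 bases, where Platr31 held 137 to 474 counts against 3487 to 7141 for Tigar.

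The gene bodies were also searched for sites of the ASOs, with at most 4 mismatches. No site of a MERVL ASO or of the scrambled ASO lay on the transcribed strand of any of the 10 genes, that is in a sequence their own RNA would carry. An intron of Tigar holds a site of MERVL-ASO3 with 0 mismatches on the opposite strand (chr6:127096438-127096457), 13119 bases from the gene's 5′ end. An intron of Sesn1 holds a site of MERVL-ASO1 with 4 mismatches, again on the opposite strand (chr10:41853464-41853483). Whether RNA is made from these opposite strands was not tested.

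Sulf2 and Abhd4 differed between the groups mainly at the 4-cell stage. Sulf2 (chr2:166073089-166155663, minus strand) stood at 40.5 and 44.6 CPM in control and 43.9 and 48.7 CPM in MERVL-KD 2-cell libraries, which overlap (log2 0.21, 95% interval −0.04 to 0.45). In 4-cell embryos it had 8.11 and 6.25 CPM in control and 23.1 and 21.6 CPM in MERVL-KD. At the 8-cell stage it had 14.4 and 9.92 CPM in control and 15.6 and 16.9 CPM in MERVL-KD. The 4-cell difference was 3.12-fold (log2 1.64, SE 0.20, edgeR adjusted p = 0.000335), and the 8-cell log2 change of 0.43 (95% interval −0.02 to 0.88) did not pass. An exon of Sulf2 overlaps one of Ncoa3 on the opposite strand by 154 bases. Ncoa3 held 20445 to 31144 counts and Sulf2 180 to 1848, and whether reads of Ncoa3 entered the counts of Sulf2 was not tested.

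Among 18 other heparan sulfate genes tested at the 2-cell stage, 3 were called higher and 2 lower with edgeR (Gpc3, Hs6st2, Ndst2, Sdc3 and Sulf1 together), and 2 and 1 with DESeq2. At each later stage 17 were tested and 1 was called, higher both times. It was Sdc4, a core protein that carries heparan sulfate on the cell surface, with a log2 change of 2.26 (SE 0.24, edgeR adjusted p = 0.000115) at the 4-cell and 1.64 (SE 0.23, edgeR adjusted p = 0.00184) at the 8-cell stage.

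Abhd4 (chr14:54254188-54270637, plus strand) showed the largest change of the 10 genes. In 2-cell embryos the control libraries held 47.0 and 55.1 CPM and the MERVL-KD libraries 56.1 and 59.2 CPM. In 4-cell embryos control had dropped to 2.10 and 2.40 CPM, while MERVL-KD stood at 10.4 and 13.5 CPM. In 8-cell embryos control held 3.05 and 3.69 CPM and MERVL-KD 4.42 and 6.67 CPM. The MERVL-KD libraries were above control at each stage, by little at the first and by far at the second. The 4-cell difference was 5.34-fold (log2 2.42, SE 0.27, edgeR adjusted p = 0.000165). The log2 changes of 0.26 (95% interval 0.02 to 0.50) at the 2-cell and 0.73 (95% interval 0.08 to 1.38) at the 8-cell stage missed the adjusted threshold (edgeR adjusted p = 0.145 and 0.202). Of the other genes listed for the N-acylethanolamine pathway, among them further Abhd genes, 10 were tested at the 2-cell stage and 9 at each later stage. The 1 gene called, higher at the 4-cell and the 8-cell stage, was Abhd5. It encodes an activator of triglyceride breakdown and not an enzyme that makes N-acylethanolamines. Its log2 changes were 1.33 (SE 0.34, edgeR adjusted p = 0.0299) and 1.11 (SE 0.28, edgeR adjusted p = 0.0423).

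Marker genes of other stages and cells were set beside these results. In 2-cell embryos, where Zmat3 and Polk were called, the 8 maternal oocyte markers summed to 1311 to 1383 CPM in control and 855 to 959 CPM in MERVL-KD. Without Sp110, the 2-cell stage markers summed to 602 to 697 CPM in control and 343 to 435 CPM in MERVL-KD in these embryos, and 9 of the 10 were lower at an unadjusted p under 0.05, with 1 called (Zscan4c). Both lists thus lay lower in the MERVL-KD libraries of that stage. The 4 blood cell markers summed to 1.79 to 2.36 CPM in control and 6.87 to 9.27 CPM in MERVL-KD 2-cell libraries. Cd68, a macrophage gene, was called higher there (log2 3.11, SE 0.36, edgeR adjusted p = 2.86e-05). It alone held 0.638 to 0.661 CPM in control and 4.10 to 6.51 CPM in MERVL-KD. The other 3 summed to 1.13 to 1.72 CPM and 2.76 to 2.77 CPM. Of the 4, 2 had 0 counts in each MERVL-KD 2-cell library, and 1 and 2 in the control libraries.

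In 4-cell embryos, where Abhd4 and Sulf2 stood apart, the maternal markers summed to 184 to 185 CPM in control and 197 to 200 CPM in MERVL-KD libraries. Of these 8, 0 were called by edgeR or DESeq2, and 4 were higher and 2 lower at an unadjusted p under 0.05. Of the 2-cell stage markers, 2 of 10 were called lower (Sp110 and Zfp352), while the 9 without Sp110 summed to 29.6 to 44.1 CPM in control and 30.0 to 44.8 CPM in MERVL-KD. Sp110 alone went from 1351 and 1441 CPM in control to 661 and 727 CPM in MERVL-KD, and the median log2 change of the 10 was 0.24. The sum for later cleavage was 491 to 527 CPM in control and 413 to 459 CPM in MERVL-KD. Tead4 alone held 198 to 223 CPM in control and 126 to 160 CPM in MERVL-KD. The other 7 summed to 293 to 303 CPM and 287 to 299 CPM. Of the 8, 3 were called higher (Id2, Krt8 and Krt18), and 2 were lower by adjusted p alone. Id2 itself fell from control 2-cell to control 4-cell embryos (log2 −1.36, SE 0.44, edgeR adjusted p = 0.0207). Blood cell markers summed to 1.87 to 3.58 CPM in control and 6.65 to 10.8 CPM in MERVL-KD, with Hba-a1, a haemoglobin gene, called higher. Cd68 held 1.33 to 2.02 CPM in control and 2.63 to 2.97 CPM in MERVL-KD. The other 3 summed to 0.539 to 1.56 CPM and 3.68 to 8.15 CPM, and 1 of the 4 had 0 counts in each MERVL-KD 4-cell library. The part of these marker differences in the results for the 10 genes was not tested.

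**Figure D2:**
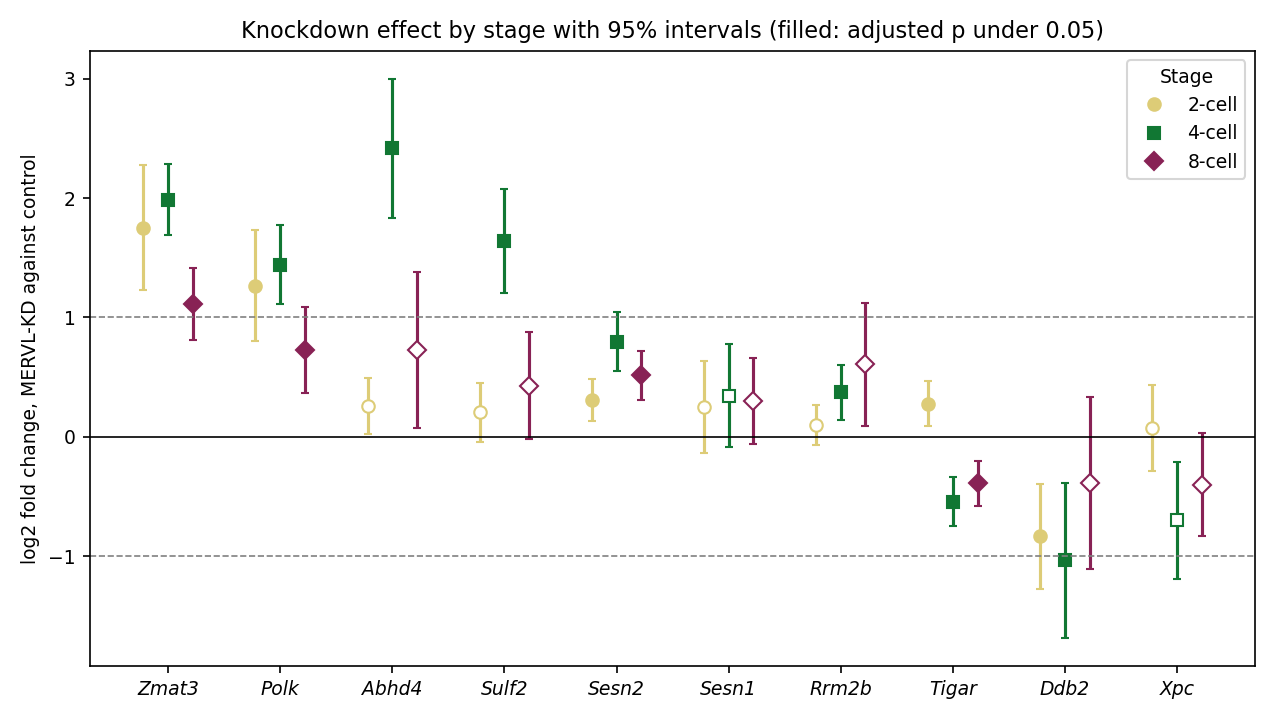
Log2 fold change of MERVL-KD against control (vertical axis) for each of the 10 genes at the 2-cell (circles), 4-cell (squares) and 8-cell stage (diamonds), with 95% intervals from edgeR. Filled symbols have an adjusted p under 0.05 and dashed lines mark 2-fold. Abhd4 and Sulf2 stood high at the 4-cell stage, at 2.42 and 1.64, and Tigar lay above 0 in 2-cell embryos and below 0 afterwards.

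The differences between stages were tested themselves, as interactions of stage and MERVL-KD in an edgeR model over 12 libraries. Such contrasts share libraries with the comparisons at each stage and with each other. From the 2-cell to the 4-cell stage the effect of MERVL-KD rose for 3 of the 10 genes, against 2.51% of all genes, and fell for 1, against 1.64%. It rose by 2.24 on the log2 scale for Abhd4 (SE 0.29, edgeR adjusted p = 0.000113) and by 1.51 for Sulf2 (SE 0.25, edgeR adjusted p = 0.00130). Sesn2 rose by 0.57 (SE 0.15, edgeR adjusted p = 0.0373), a difference that passed in 9 of 20 alternatives and was 0.26 with library size alone as scaling. The Tigar effect fell by 0.74 (SE 0.13, edgeR adjusted p = 0.00223) and passed in all 20 alternatives, as did those of Abhd4 and Sulf2.

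From the 4-cell to the 8-cell stage the effect rose for 0 genes, against 0.275% of all genes, and fell for 2, against 0.349%. At an unadjusted p under 0.05 and with DESeq2 the count of rises was also 0. The effect on Abhd4 fell by 1.69 (SE 0.31, edgeR adjusted p = 0.0122) and that on Sulf2 by 1.21 (SE 0.26, edgeR adjusted p = 0.0349). These passed in 17 and 11 of 20 alternatives, and without the second MERVL-KD 4-cell library neither did. Between the 2-cell and the 8-cell stage the effect rose for 0 genes, against 2.39%, and fell for 1, Tigar, against 1.63%. At an unadjusted p under 0.05 there was 1 rise, and with DESeq2 0. The Tigar effect fell by 0.59 (SE 0.13, edgeR adjusted p = 0.0120). It was lost without the first control 2-cell library (edgeR adjusted p = 0.0526) or the first MERVL-KD 2-cell library (edgeR adjusted p = 0.0677).

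Over the mean of the 3 stages 3 of the 10 genes were called higher, against 2.25% of all genes, and 0 lower, against 1.75%. Zmat3 rose by 1.58 (SE 0.11, edgeR adjusted p = 5.37e-10), Polk by 1.11 (SE 0.10, edgeR adjusted p = 5.86e-08) and Abhd4 by 1.10 (SE 0.12, edgeR adjusted p = 8.40e-07) on the log2 scale. Without the second MERVL-KD 8-cell library Abhd4 was at 0.99, just under 2-fold. Without the fold limit 6 genes were higher and 3 lower, against 6.62% and 10.4% of all genes. At an unadjusted p under 0.05 the lower genes were also 3, and DESeq2 called 0 lower.

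In control embryos the 10 genes differed in their course from the 2-cell to the 4-cell stage. Called higher at the 4-cell stage were 2 genes, against 25% of all genes, and called lower were 4, against 28.5%. Without the fold limit the counts were 4 and 5, against 32% and 33.9%. The called rises were those of Zmat3 (4.32-fold, log2 2.11, SE 0.24, edgeR adjusted p = 2.70e-05) and Polk (3.57-fold, log2 1.84, SE 0.20, edgeR adjusted p = 2.00e-05). Abhd4 had the deepest fall, of 4.42 on the log2 scale (SE 0.18, edgeR adjusted p = 1.63e-08). Sulf2 fell by 2.48 (SE 0.17, edgeR adjusted p = 5.72e-07), Rrm2b by 2.40 (SE 0.10, edgeR adjusted p = 1.58e-08) and Sesn2 by 1.19 (SE 0.12, edgeR adjusted p = 9.06e-06). Under 2-fold, Tigar rose by 0.87 and Sesn1 by 0.80, and Ddb2 fell by 0.64, while Xpc changed by −0.21 (95% interval −0.62 to 0.19).

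In control embryos few changes of these genes from the 4-cell to the 8-cell stage passed the test. With edgeR and with DESeq2, 0 were called in either direction, against 0.693% of all genes higher and 1.04% lower, and at an unadjusted p under 0.05 there were 2 higher and 2 lower. Without the fold limit 1 gene was higher and 1 lower, against 6.54% and 3.76%. Zmat3 rose by 0.55 (SE 0.16, edgeR adjusted p = 0.0403) and Sesn2 fell by 0.36 (SE 0.10, edgeR adjusted p = 0.0402).

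Set side by side, the genes whose MERVL-KD level exceeded control at the 4-cell stage did not share a course in control embryos. Zmat3 and Polk were rising from the 2-cell stage, whereas Abhd4 and Sulf2 were falling. In MERVL-KD embryos Abhd4 also stood far lower at the 4-cell stage (10.4 and 13.5 CPM) than at the 2-cell stage (56.1 and 59.2 CPM), and Sulf2 fell from 43.9 and 48.7 CPM to 23.1 and 21.6 CPM. The control 4-cell libraries enter both of these comparisons.

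Levels of different genes were compared per length, as CPM per kilobase of the exonic length in the files. In control 2-cell embryos Sesn2 was the most abundant, at 81.8 ± 7.4 CPM per kb (SD, n = 2), followed by Rrm2b at 50.6 ± 1.8 and Tigar at 31.4 ± 1.5. Zmat3 was the least abundant, at 0.316 ± 0.091 CPM per kb. No neighbours in the order of the 10 genes overlapped in that group. In control 4-cell embryos Tigar led with 54.3 ± 1.5 CPM per kb and Abhd4 came last with 0.685 ± 0.064. Polk and Ddb2, Ddb2 and Xpc, and Zmat3 and Sulf2 were neighbours whose libraries overlapped there. In control 8-cell embryos Tigar and Sesn2 led with 55.5 ± 2.1 and 26.7 ± 0.15 CPM per kb, and neighbours overlapped from Xpc through Sulf2 and Zmat3 to Ddb2.

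The order of the 10 genes by level was not the same in MERVL-KD embryos. Zmat3 was the least abundant of the 10 genes in MERVL-KD 2-cell embryos, as in control, with 1.01 ± 0.20 CPM per kb. At the 4-cell stage it held 5.10 ± 0.062 CPM per kb in MERVL-KD embryos, next to Sesn1 at 5.50 ± 0.47, against 1.29 ± 0.080 in control. Sesn2 and not Tigar led in MERVL-KD 4-cell embryos, with 58.7 ± 3.4 against 37.2 ± 1.4 CPM per kb. In MERVL-KD 8-cell embryos Tigar led again with 42.2 ± 0.66, above Sesn2 at 37.9 ± 2.1. Neighbours that overlapped were Sulf2 and Abhd4 as well as Xpc and Ddb2 in 4-cell embryos. In 8-cell embryos they were Sesn1 and Polk, Polk and Zmat3, and Abhd4 and Xpc.

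**Figure D3:**
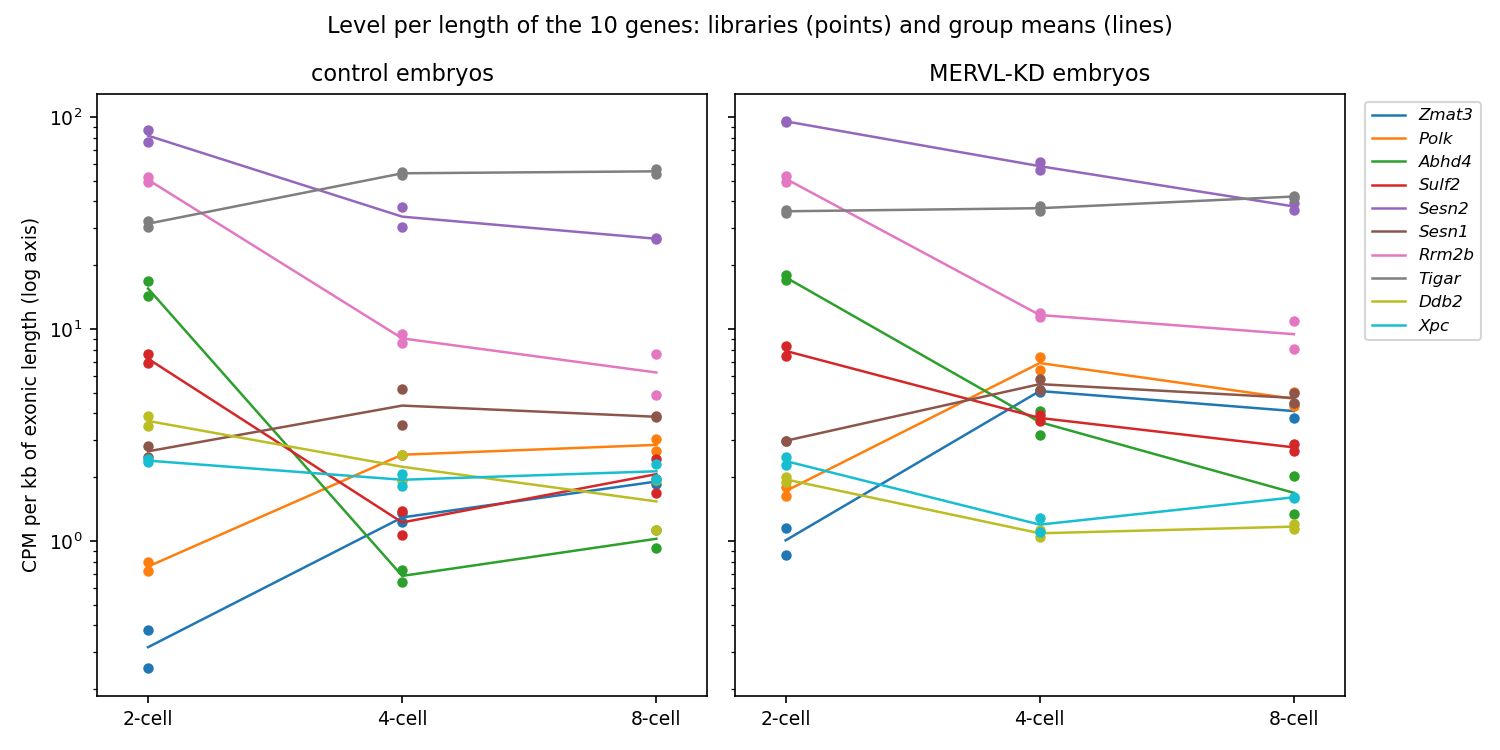
CPM per kilobase of exonic length (vertical axis, logarithmic) of the 10 genes by stage from 2-cell to 8-cell, in control embryos (left) and MERVL-KD embryos (right), with a point for each library and lines through the group means. Sesn2, Rrm2b and Tigar were the most abundant in each panel, and Abhd4 dropped to 0.685 CPM per kb in control and 3.64 in MERVL-KD 4-cell embryos.

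Likeness of profile was measured as the root mean square difference between the 6 group means of log2 CPM, each profile centred on its own mean, over 16575 other named genes. Among the 10 genes the closest pairs were Zmat3 and Polk (0.36 on the log2 scale), Sesn1 and Tigar (0.36), and Ddb2 and Xpc (0.39). The genes nearest to Zmat3 were Lrp3 (0.22), a lipoprotein receptor family member, and Bbc3 (0.26), which encodes the cell death protein PUMA. Nearest to Polk were Ercc5 (0.10) and Bmp1 (0.12). Nearest to Abhd4 were Tafa5 (0.18) and the pseudogene Gtpbp4-ps3 (0.21), and to Sulf2 were Vcan (0.10), a matrix proteoglycan, and Pcsk1n (0.15). The nearest to Sesn2 were Kifc2 (0.07) and Thap2 (0.10), and to Sesn1 they were Dnajc3 and Ddias (0.06 each). Tigar was closest to Xrcc2 (0.06) and G3bp1 (0.08), and Rrm2b to Cep135 (0.06) and Hectd2 (0.08). Ddb2 was closest to Cdk12 and Hsf3 (0.12 each), and Xpc to Rnf126 (0.06) and Dnaja3 (0.08). With 6 group means such nearness is a description of these libraries.

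Other commonly cited p53 targets, most of them in arrest and cell death, were mostly higher in MERVL-KD embryos at the 4-cell stage. Of 26 tested, 12, 16 and 6 were called higher at the successive stages, against 4.37%, 2.66% and 0.641% of all genes. With edgeR or DESeq2 0 were called lower, against 2.24%, 1.88% and 1.06% of all genes with edgeR. This list was chosen with earlier results of these data known. At an unadjusted p under 0.05, 3, 0 and 2 were lower at the successive stages. Their median log2 fold change was 1.00, 1.34 and 0.50. Ccng1 (cyclin G1) had the smallest adjusted p over the stages, with log2 changes of 1.93 (SE 0.11, edgeR adjusted p = 8.91e-09), 3.01 (SE 0.22, edgeR adjusted p = 0.000136) and 1.89 (SE 0.12, edgeR adjusted p = 2.60e-06). Of p53 itself and its regulators, 14 were tested at the 2-cell and 4-cell stages and 13 at the 8-cell stage. None was called higher by edgeR or DESeq2, with 0, 1 and 0 higher at an unadjusted p under 0.05, and 1 was called lower, the damage kinase gene Atr at the 4-cell stage. Before adjustment 4, 7 and 4 were lower at p under 0.05, and by adjusted p alone 5 of 14 were lower in 4-cell embryos. Mdm4, which encodes an inhibitor of p53, changed by −0.15, −0.65 and −0.41 on the log2 scale, with edgeR adjusted p = 0.153, 0.000603 and 0.0282.

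**Figure D4:**
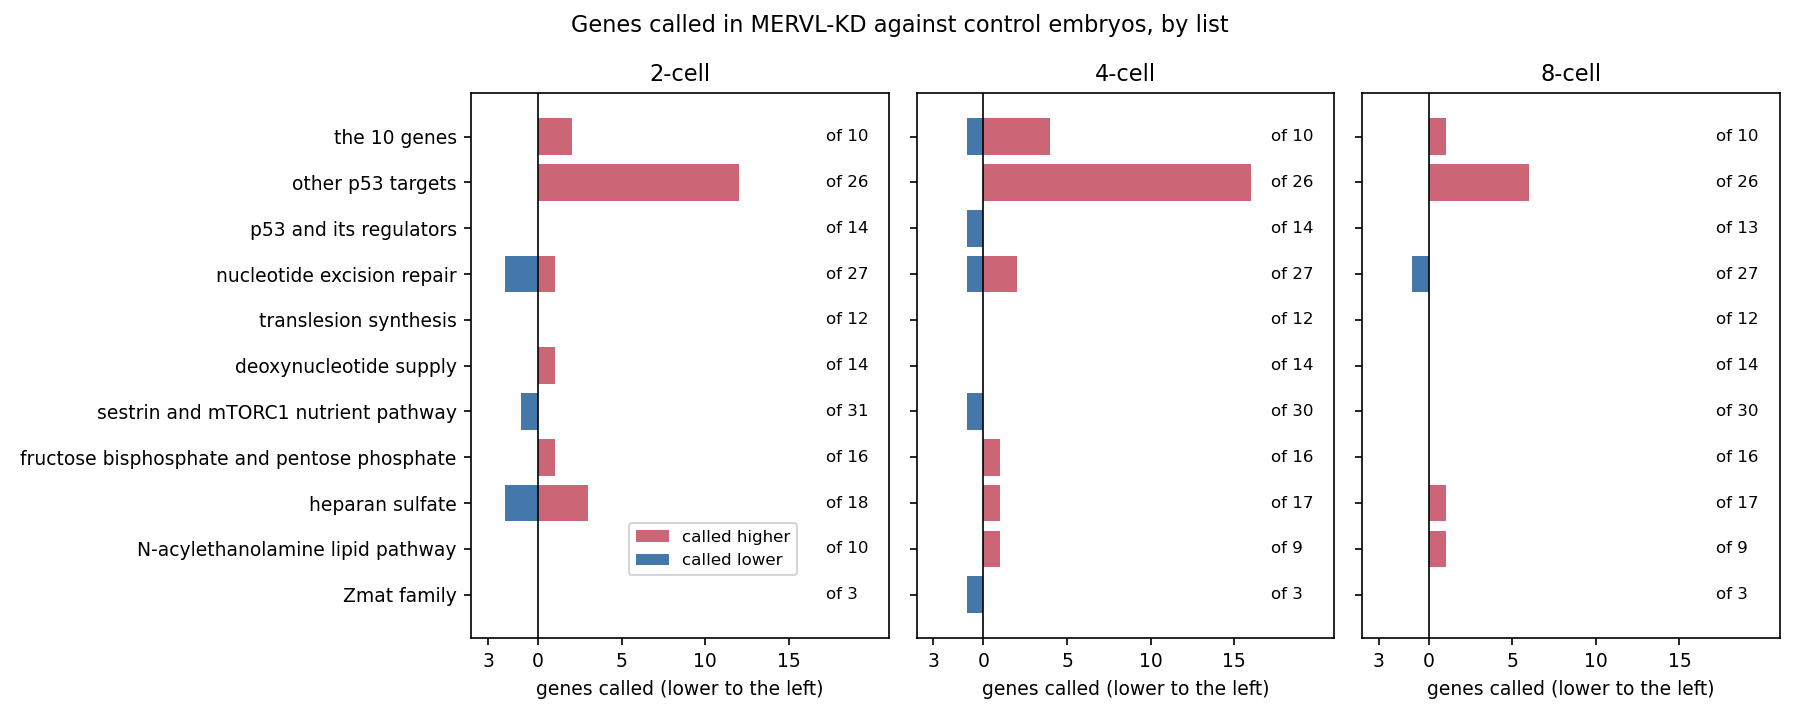
Number of genes called higher (to the right) and lower (to the left) in MERVL-KD against control embryos at each stage, for the 10 genes and for 10 lists of related genes, with the number tested beside each bar. Most calls fell among the other p53 targets, with 16 of 26 higher at the 4-cell stage, against 2.66% of all genes. The repair and metabolism lists held at most 3 calls in a direction.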

How the data were processed

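Total RNA of 12 pools of embryos was sequenced from rRNA-depleted, randomly primed, stranded libraries. The authors aligned reads to GRCm38 with STAR 2.5.3a, restricted them to unique alignments, and assigned them to GENCODE genes or RepeatMasker families (featureCounts), and the deposited values are raw counts per gene. The strand and mate settings of the counting are not given in the sources used here. Of the gene counts from 1 to 50, 71.8% to 74.7% per library are even, as they would be if both mates of a pair were counted, and counts may then exceed the number of fragments. Unique alignment lowers the counts of repeats and near-identical genes.

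Library totals ranged from 28167085 to 41482526 counts. Genes were filtered with filterByExpr and scaled by TMM, and tested with the robust quasi-likelihood test of edgeR 4.0.16 in R 4.3.3, with Benjamini-Hochberg adjustment over all genes and repeat families. Calls needed an adjusted p under 0.05 and a 2-fold change, and stage differences an adjusted p under 0.05. SE is the absolute log2 change divided by the square root of F. Stages were fitted separately, and means over stages, interactions and CPM came from the 12 libraries together. The CPM and the log2 changes at a stage thus rest on different scaling factors, and small changes can differ between them. In 2-cell embryos Xpc had a mean of 13.2 CPM in control and 13.1 CPM in MERVL-KD, beside a log2 change of 0.08. Alternatives were DESeq2 1.42.0, its size factors, library size alone, other count filters, a replicate block, no fold limit and leaving out each library. The scripts were tested on simulated data.

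The members and gene lists were chosen with earlier results of these data known. Named beside the members were the list genes with the smallest adjusted p over the mean of the stages, and the genes called in a list where 5 or fewer were. The latter were chosen after their values were seen. No deposited columns of other samples were present.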

Additional observations from a re-analysis of the deposited data

Results flagged for a closer look

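Differences between stages in the effect of MERVL-KD, tested as interactions in the edgeR fit of the 12 libraries, passed the adjusted threshold for 4 of the 10 genes. The effect was larger at the 4-cell than at the 2-cell stage by 2.24 on the log2 scale for Abhd4, by 1.51 for Sulf2 and by 0.57 for Sesn2. By the same rule it rose for 2.51% and fell for 1.64% of all genes. The Sesn2 difference passed in 9 of 20 alternatives. For Tigar the difference between these stages was −0.74, with MERVL-KD libraries above control at the 2-cell stage and below it at the 4-cell stage. Between the 8-cell and the 4-cell stage the difference in effect was −1.69 for Abhd4 and −1.21 for Sulf2. These passed in 17 and 11 of 20 alternatives, and 0.349% of all genes fell by this rule. Between the 8-cell and the 2-cell stage the difference was −0.59 for Tigar, where 1.63% of all genes fell. Groups of 2 libraries are too small for a search for single libraries that stand apart.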

How the results depend on the processing

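No direction of a called value was reversed under any alternative. Over the 10 genes and 9 comparisons, 830 of 860 results under other settings kept their side of the threshold, while 6 lost and 24 gained a call. With a library left out 649 of 680 did, with 29 lost and 2 gained. These counts do not ask about direction where a gene was not called, and some such small changes switched sign. Without the fold limit the called genes numbered 5 in 2-cell embryos (2 with it), 8 in 4-cell (5) and 4 in 8-cell embryos (1). They numbered 9 over the mean of the stages (3) and 2 between the control 8-cell and 4-cell stages (0). Of all genes, 6.7% were higher and 7.39% lower by this rule in 2-cell, 4.92% and 5.84% in 4-cell, and 1.5% and 3.56% in 8-cell embryos. The shares were 6.62% and 10.4% over the mean, and 6.54% and 3.76% between the control stages. A 2-fold limit on the stage differences left 2 of 4 genes between the 2-cell and 4-cell stages and 0 of 1 between the 2-cell and 8-cell stages. Testing every gene with at least 1 count gave 2 genes for the latter in place of 1, adding Rrm2b. The p53 element search within 1000 bases found 0 genes in place of 2. With 1 library left out, so that the lone library of a group is assumed to vary like the others, the counts ranged from 2 to 2, 4 to 4 and 1 to 1 at the successive stages and from 2 to 3 over their mean. They ranged from 6 to 7 and 0 to 0 for the control stages, and from 3 to 4, 0 to 2 and 0 to 2 for the differences between the 4-cell and 2-cell, 8-cell and 4-cell, and 8-cell and 2-cell stages. Without the second control 8-cell library the last was 2, without the first control or the first MERVL-KD 2-cell library it was 0, and the middle one was 0 without the second MERVL-KD 4-cell library. The cause of these changes was not tested.

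Libraries of the same replicate number had correlations of deviations of −0.013, −0.00074 and 0.0074 at the successive stages, over 24850 genes and repeat families. The labels do not say whether a number marks a shared day or litter. Correlations that include noisy low counts cannot exclude it. With the replicate number as a block the called genes numbered 2, 4 and 1 at the stages, 3 over their mean, 6 and 0 between control stages, and 4, 2 and 1 for the stage differences. The call of Ddb2 at the 4-cell stage was lost under the block (edgeR adjusted p = 0.0646), which changed no other call. With library size alone that call was lost (edgeR adjusted p = 0.0670), as was the Sesn2 difference between the 4-cell and 2-cell stages (0.26, edgeR adjusted p = 0.327), and the same difference for Xpc passed (edgeR adjusted p = 0.0461). Scaling by library size alone moved the median log2 change of all genes by 0.29, 0.06 and 0.13 at the successive stages. With it, the mean change of Tigar over the stages was −0.06 (edgeR adjusted p = 0.519). With 2 libraries a group, exact permutation of single genes cannot go below p = 0.333.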
